A study of Mus musculus with 12 samples.

Results

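The 3 methylation states of lysine 4 on histone H3 were compared with each other in vehicle-treated differentiating muscle cells. The cells were C2C12, an established mouse myoblast line whose cells leave the cell cycle and fuse into myotubes when serum is reduced, and all cultures used here were kept for 48 h (day 2) in differentiation medium with 2% horse serum and vehicle. Mono-, di- and trimethylated H3K4 (H3K4me1, H3K4me2, H3K4me3) were each mapped by chromatin immunoprecipitation and sequencing (ChIP-seq) in 1 library. These are 3 of the 12 samples of the series, chosen by their labels; the S2101 (LSD1 inhibitor), pan-H3 and input samples are not analysed here. The mono- and dimethyl libraries belong to experiment 1 and the trimethyl library to experiment 2, so a difference between H3K4me3 and the other 2 marks and a difference between experiments cannot be told apart. The H3K4me1 antibody was from Abcam and the H3K4me2 and H3K4me3 antibodies from Millipore, per the labels.

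Lysine 4 of H3 is methylated by enzymes of the MLL/SET1 family and demethylated by LSD1 (mono- and dimethyl) and by the KDM5 enzymes (di- and trimethyl). In mammalian cells H3K4me3 marks active or poised gene starts, H3K4me1 marks enhancers and the outer flanks of gene starts, and H3K4me2 occurs at both. At a gene start the states are known to form shells, with the trimethyl state innermost. In muscle cells, enhancers marked by H3K4me1 are bound by the myogenic factors that drive differentiation. This background is knowledge of the field and not a result of these lists.

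The data are the peak lists that the authors deposited, in coordinates of mouse build mm9, with 40432 peaks of H3K4me1, 21447 of H3K4me2 and 13589 of H3K4me3. No annotation of mm9 was used here, so regions are given by position, and neither gene names nor the muscle markers of the cells could be attached. Peaks carry a score that the authors' peak caller wrote, which ranks peaks within a list only. The score was under 200 in 55.9% of the H3K4me1 peaks, in 22.0% of the H3K4me2 peaks and in 8.57% of the H3K4me3 peaks, and 56.5% of the H3K4me3 peaks stood at 3100 or more. The number of reads behind each list is unknown. There is no replicate of any mark, so no p-value is given: the intervals beside shares are 95% Wilson intervals for counting error alone, and the range over the 19 autosomes shows how far a value varies along the genome. Neighbouring peaks are not independent, and autosomes are not replicates.

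Peaks became wider from the mono- to the trimethyl state, but the widest single domains were those of H3K4me2. Under 1 kb in width were 86.4% of the H3K4me1 peaks, 30.2% of the H3K4me2 peaks and 19.8% of the H3K4me3 peaks. Widths of 2 kb or more were reached by 1.75%, 24.6% and 34.6%. The quartiles of width were 410 and 768 bp for H3K4me1, 918 and 1986 bp for H3K4me2 and 1140 and 2266 bp for H3K4me3. At the upper end the order changed: 234 H3K4me2 peaks were 5 kb or wider, against 125 H3K4me3 peaks and 21 H3K4me1 peaks, and the maxima were 21895, 10066 and 12363 bp. At the lower end H3K4me2 and H3K4me3 were alike, since a width of 701 bp was exceeded by 90% of the former and one of 694 bp by 90% of the latter. The smallest peak in each list was 149 bp (H3K4me1), 295 bp (H3K4me2) and 224 bp (H3K4me3), and the sequenced libraries held fragments of 170 to 500 bp.

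**Figure D1:**
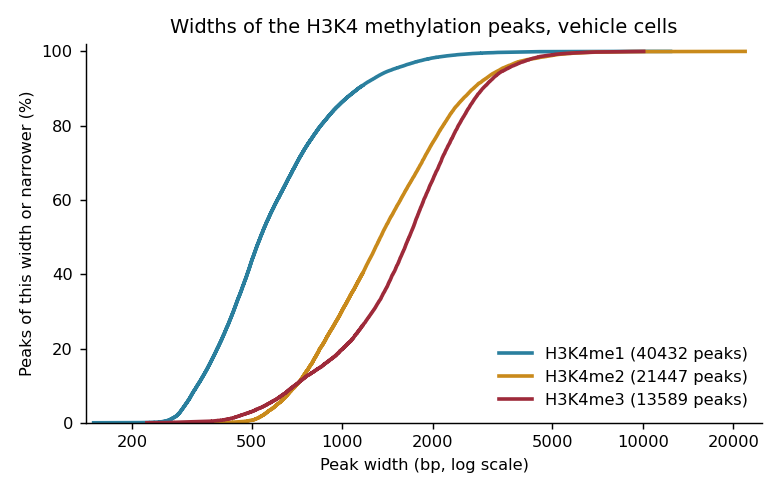
Cumulative share of peaks (percent) against peak width (bp, log scale) for the 3 vehicle lists. H3K4me1 lies to the left, with 86.4% of its peaks under 1 kb; the H3K4me2 and H3K4me3 curves cross near 700 bp, at about 10% of peaks, and H3K4me3 lies to the right above that.

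Within a mark, H3K4me1 peaks lay closest together. Theirs is also the list with the most peaks, which alone shortens gaps, and gaps were not compared at equal list length. Measured from edge to edge, the median gap to the next peak of the same mark was 4075 bp for H3K4me1, 26937 bp for H3K4me2 and 51038.5 bp for H3K4me3. Gaps under 500 bp made up 27.0%, 15.5% and 6.03% of all gaps. Joining such neighbours reduced the lists to 29527, 18122 and 12771 peaks, the largest reduction being that of H3K4me1.

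The 3 lists together covered 56.3 Mb, and 2 combinations made up most of it: H3K4me1 alone and H3K4me2 together with H3K4me3. H3K4me1 was alone over 20.3 Mb (36.1% of the covered bases), and H3K4me2 and H3K4me3 shared 20.3 Mb without H3K4me1 (36.0%). H3K4me2 was alone over 7.21 Mb (12.8%), H3K4me1 and H3K4me2 shared 4.39 Mb (7.80%), and all 3 marks shared 2.17 Mb (3.85%). H3K4me3 alone covered 1.90 Mb (3.37%). Bases with H3K4me1 and H3K4me3 but no H3K4me2 came to 0.0248 Mb (0.0441%), the smallest of the 7 combinations. Of the bases shared by H3K4me1 and H3K4me3, 98.9% were also in an H3K4me2 peak. Since the chromatin comes from many cells, shared bases do not tell whether 2 states lie on the same nucleosome, on neighbouring ones or in different cells.

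Most H3K4me3 bases were shared with H3K4me2, and most H3K4me1 bases with neither mark. Of the H3K4me3 bases, 92.1% lay in H3K4me2 peaks (87.6% on chromosome 7 to 97.2% on chromosome 15), while 66.0% of the H3K4me2 bases lay in H3K4me3 peaks (58.7% on chromosome 15 to 70.9% on chromosome 7). Of the H3K4me1 bases, 24.4% lay in H3K4me2 peaks (16.0% on chromosome 13 to 30.4% on chromosome 19) and 8.15% in H3K4me3 peaks (4.50% on chromosome 16 to 11.3% on chromosome 19). H3K4me1 covered 19.3% of the H3K4me2 bases (7.83% on chromosome 7 to 41.5% on chromosome 15) and 8.997% of the H3K4me3 bases (2.64% on chromosome 7 to 25.2% on chromosome 15). Both shares of a pair rest on the same shared bases, so they differ by the total length of the 2 lists; with lists of 13589 peaks each, 84.3% of the H3K4me3 bases lay in H3K4me2 and 75.5% of the H3K4me2 bases in H3K4me3. Of whole peaks, 51.1% of the H3K4me3 peaks lay inside H3K4me2 to the last base, against 4.67% of the H3K4me2 peaks inside H3K4me3.

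Merging peaks that share at least 1 bp gave 46999 regions, of which 16586 (35.3%) held more than 1 mark. Regions with H3K4me1 only numbered 28069 (59.7%, interval 59.3 to 60.2%), with a median width of 518 bp. Regions with H3K4me2 and H3K4me3 numbered 7652 (16.3%, 16.0 to 16.6%) and were 1979 bp wide at the median. All 3 marks were held by 4964 regions (10.6%, 10.3 to 10.8%), which were the widest class, at a median of 2494.5 bp (quartiles 1878 and 3371). H3K4me1 and H3K4me2 without H3K4me3 came together in 3953 regions (8.41%, 8.16 to 8.67%) of 1381 bp. H3K4me2 stood by itself in 1902 regions (4.05%) and H3K4me3 by itself in 442 (0.940%), with medians of 771.5 and 648 bp. Only 17 regions held H3K4me1 and H3K4me3 without H3K4me2. In bases the order differed, since the multi-mark regions are wide: those with all 3 marks took 25.1% of the covered bases and those with H3K4me1 only 31.2%. Of the 529 regions of 5 kb or more, 385 held all 3 marks. Width and number of marks are tied by the merging, so this ranking of the classes is in part fixed by it. Regions with all 3 marks joined 3.70 peaks on average, those with H3K4me2 and H3K4me3 2.24, and those with H3K4me1 only 1. The number of regions with all 3 marks fell as the lists were shortened. It was 2028 among peaks with a score of 200 or more, a cut that took out 55.9% of the H3K4me1 peaks. With each list cut to its 13589 highest-scoring peaks, from 40432 for H3K4me1, it was 1635. These falls were not set apart from the shortening of the H3K4me1 list.

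**Figure D2:**
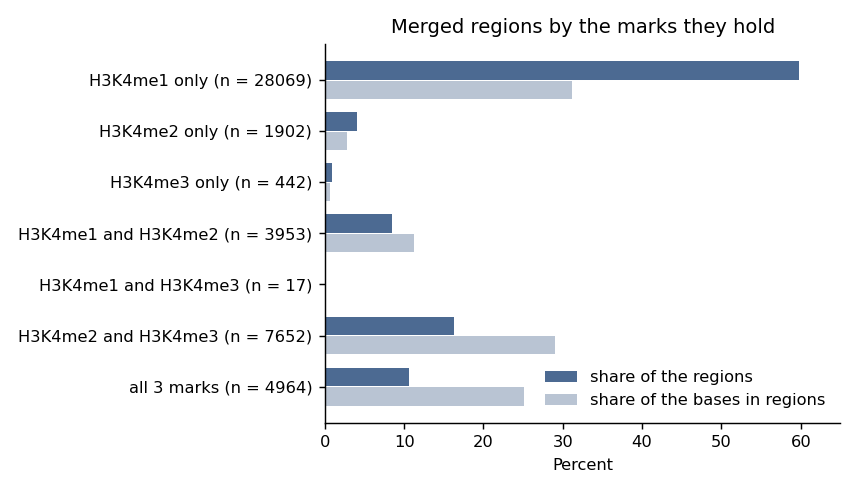
Share of the 46999 merged regions (dark bars) and of the bases in them (light bars), in percent, for each combination of marks, with the number of regions in brackets. Regions with H3K4me1 only lead by number (59.7%), and the class with H3K4me1 and H3K4me3 but no H3K4me2 holds 17 regions.

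In pairs of 1 peak each, H3K4me2 mostly wrapped H3K4me3 with a narrow margin on each side. In the 9661 pairs in which an H3K4me2 and an H3K4me3 peak overlapped only each other, H3K4me3 was 1559 bp wide at the median (quartiles 1122 and 2021) and H3K4me2 1819 bp (1314 and 2376). The ratio of the H3K4me2 width to the H3K4me3 width had a median of 1.18 (95% interval of the median 1.18 to 1.19, quartiles 1.06 and 1.35; medians of the autosomes 1.14 to 1.24), and H3K4me2 was the wider in 83.3% of pairs. It extended 146 bp beyond the left edge (quartiles 30 and 270) and 143 bp beyond the right edge (29 and 271), so neither side was favoured. Both medians are shorter than the shortest library fragments, 170 bp, and the 2 lists come from different experiments. H3K4me3 lay wholly inside in 64.7% of pairs (63.7 to 65.6%), from 50.6% on chromosome 7 to 81.5% on chromosome 15. The reverse, H3K4me2 inside H3K4me3, occurred in 4.04%, and in 31.3% the peaks were staggered, with H3K4me2 protruding on the left in 1514 pairs and on the right in 1510. The 2 centres lay 96 bp apart at the median. Widths went together across the pairs (Spearman's rho 0.837 over 9661 pairs, as a description; the paired peaks share their site). Among others, the pairs leave out the H3K4me3 peaks over 2 or more H3K4me2 peaks, 19.8% of the list. Over the whole H3K4me3 list, 51.1% of the peaks lay wholly inside H3K4me2.

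The typical region of this class, by the rule for named regions, lies on chromosome 1 (136390480 to 136392264, 1785 bp). Its H3K4me2 peak fills the region, and its H3K4me3 peak starts 52 bp further in and ends at 136392059. Across the 7652 regions with these 2 marks, H3K4me2 alone formed 78.0% of the region ends and H3K4me3 alone 21.8%. Orders of marks are counted in either orientation along the chromosome. The commonest, in 3368 regions (44.0%), was H3K4me2 alone, both marks, H3K4me2 alone. In 2220 (29.0%) H3K4me2 alone stood at an end of the region and H3K4me3 alone at the other. In 1150 (15.03%) a separate H3K4me2 peak sat at each end, with a stretch of H3K4me3 alone between them.

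This last order recurred throughout the list: 2597 H3K4me3 peaks (19.1%) spanned exactly 2 H3K4me2 peaks. The gap between those 2 was 140 bp at the median (quartiles 53 and 317). Such H3K4me3 peaks were wide, 2419 bp at the median, compared with 1532 bp for the 10444 H3K4me3 peaks over a single H3K4me2 peak. The H3K4me3 list was ranked by width and divided into 10 equal bins. The share over 2 or more H3K4me2 peaks went from 0.736% in the narrowest bin (224 to 694 bp) to 54.3% in the widest (2933 to 10066 bp). A wider peak has more room to span several others, and every H3K4me2 peak was 295 bp or wider. These differences in width are thus in part a matter of geometry. Inside H3K4me3 peaks, H3K4me2 coverage was highest 600 bp from the edge, at 96.2% of edges, and lower deeper in, 91.2% at 1 kb and 86.2% at 1400 bp; each depth counts only the peaks at least 2 times as wide as it. Outward, it fell from 80.3% at the first base outside the edge to 63.2% at 100 bp, 16.3% at 500 bp, 8.32% at 1 kb and 4.11% at 10 kb.

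H3K4me1 was found at the rim of H3K4me3 peaks and was scarce in their interior. Its coverage was highest 100 bp inside the H3K4me3 edge, at 16.2% of edges (15.7 to 16.6%), with 16.1% at 200 bp inside. Further in, it fell to 8.00% at 500 bp and 2.06% at 1 kb, and stayed between 1.73% and 1.88% from 1100 to 1500 bp. Outside the edge it was 13.2% at 100 bp (12.8 to 13.6%; autosomes 5.99 to 30.2%), 8.12% at 500 bp, 5.33% at 1 kb and 3.35% at 10 kb (autosomes 1.53 to 7.76%). The 1100 bp inner position (1.75%, interval 1.48 to 2.08%) was thus below the level 10 kb away (3.14 to 3.57%), though it counts wide peaks only. Left and right edges gave 12.8% and 13.6% at 100 bp outward. Among peaks with a score of 200 or more the value at 100 bp outward was 6.74%, and with lists of equal length 5.53%.

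**Figure D3:**
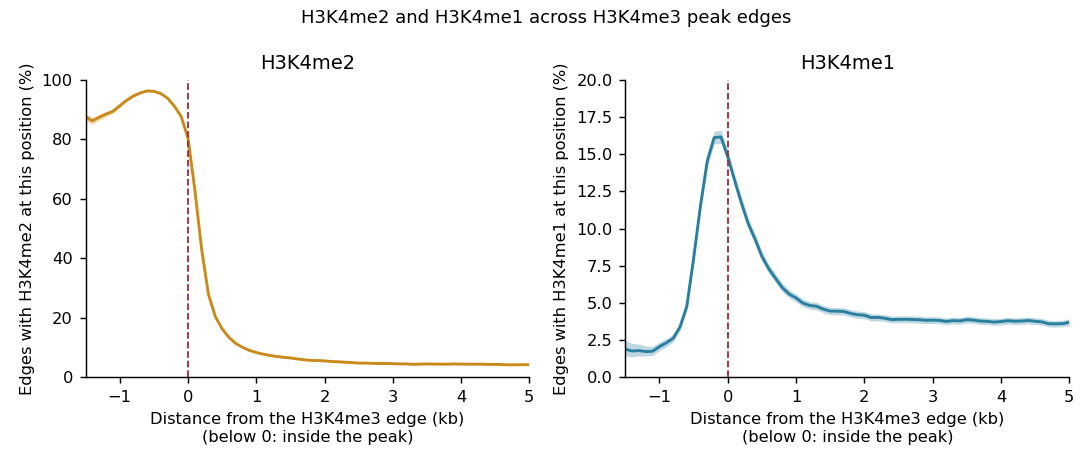
Percent of the 27178 H3K4me3 peak edges at which a position is in an H3K4me2 peak (left panel) or an H3K4me1 peak (right panel, smaller scale), against the distance from the edge in kb; values below 0 lie inside the H3K4me3 peak and count peaks at least 2 times that depth in width, and the shading is the 95% Wilson interval. H3K4me2 drops from 80.3% to 8.32% within 1 kb outside, and H3K4me1 peaks at 16.2% at 100 bp inside.

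H3K4me3 edges mostly opened onto H3K4me2, and H3K4me2 edges mostly onto no other mark. Just outside 27178 H3K4me3 edges, H3K4me2 without H3K4me1 was present at 66.2%, both at 14.1%, neither at 5164 edges and H3K4me1 alone at 0.673%. Just outside 42894 H3K4me2 edges, no other mark was present at 60.0%, H3K4me3 alone at 22.9% and H3K4me1 alone at 16.8%. The 80864 H3K4me1 edges opened onto no other mark at 78.1%, onto H3K4me2 alone at 13.03%, onto both at 8.77% and onto H3K4me3 alone at 0.132%. An H3K4me1 and an H3K4me3 peak thus seldom met without H3K4me2 between or over them.

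Of the 5572 H3K4me1 peaks that overlapped H3K4me3, most straddled an edge. Across the left edge lay 32.8% of them and across the right edge 35.2%, while 29.9% were wholly inside and 1.31% reached beyond both edges. In the 3632 pairs of an H3K4me1 and an H3K4me3 peak that overlapped only each other, the centres were 727.5 bp apart at the median (quartiles 399.5 and 1065), against 96 bp for H3K4me2 and H3K4me3. Widths did not go together in these pairs (Spearman's rho -0.0364 over 3632 pairs, as a description; the pairs share their site). When 2 H3K4me1 peaks fell on the same H3K4me3 peak, as in 827 cases, the gap between them was 961 bp at the median (quartiles 320 and 1687.5).

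H3K4me1 flanked H3K4me3 more often on a single side than on both. Within 2 kb outside the edges, 10.4% of the 13589 H3K4me3 peaks had H3K4me1 on both sides (9.90 to 10.9%; 4.50% on chromosome 7 to 29.0% on chromosome 15). On the left only it was 13.6%, on the right only 14.3%, and on neither side 61.7%. The sides went together: a right flank was present at 43.3% of the peaks with a left flank (41.7 to 45.1%) and at 18.9% of those without (18.1 to 19.6%), and the former share was higher on all 19 autosomes. Among peaks with a score of 200 or more, H3K4me1 was on both sides of 3.702%, and with lists of equal length of 3.13%. H3K4me2 had the opposite balance, with both sides at 71.0%, a single side at 23.7% and neither at 5.28%.

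H3K4me1 on both sides was most frequent at the widest H3K4me3 peaks and least frequent at those of middle width. Over the 10 bins by width, it was present at 14.2% of the narrowest bin, 5.74% of the fifth (1474 to 1668 bp) and 19.7% of the widest. H3K4me1 on a single side was present at 26.7%, 23.5% and 35.8% of the same bins, and was lowest in the third, at 21.7%. The share of H3K4me3 bases covered by H3K4me1 fell from 17.95% in the narrowest bin to 7.49% in the widest. H3K4me2 overlapped 80.9% of the narrowest bin and 99.9% of the widest. Scores went with width: no H3K4me3 peak of the narrowest bin reached 3100, and 98.2% of the widest bin did. The part of the score in these differences was not tested.

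Where H3K4me3 was absent, H3K4me1 and H3K4me2 were mostly staggered and neither regularly enclosed the other. In 2585 pairs that overlapped only each other and touched no H3K4me3, H3K4me2 was 862 bp wide at the median and H3K4me1 728 bp, a ratio of 1.18 (interval 1.13 to 1.21) with quartiles of 0.736 and 1.801. H3K4me1 was wholly inside in 25.6% (24.0 to 27.3%), H3K4me2 wholly inside in 16.7%, and 57.7% were staggered. The typical region of this class, on chromosome 4 (83733817 to 83734966, 1150 bp), is staggered too: H3K4me2 covers its first 777 bp and H3K4me1 its last 419 bp. Among the 3953 regions with these 2 marks, H3K4me1 alone at an end, both marks, and H3K4me2 alone at the other end occurred in 1491 (37.7%). H3K4me1 at both ends with H3K4me2 alone in the centre occurred in 699 (17.7%), H3K4me1 inside H3K4me2 in 658 (16.6%) and H3K4me2 inside H3K4me1 in 429 (10.9%).

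Around the 6040 H3K4me2 peaks outside H3K4me3, H3K4me1 coverage was highest at the centre, 47.5%, and fell to 41.0% at 500 bp, 29.0% at 1 kb and 8.34% at 5 kb. In the 169 of them that were 2 kb or wider it formed shoulders, with 62.1% at the centre, 74.3% at 1 kb and 43.5% at 2 kb. H3K4me2 peaks of that width over H3K4me3, 5106 in number, had a lower H3K4me1 coverage of the same form: 6.52% at the centre, 16.6% at 1 kb and 5.57% at 5 kb. Of the H3K4me2 peaks free of H3K4me3, 1258 spanned exactly 2 H3K4me1 peaks, and the gap between these was 184.5 bp at the median (quartiles 72 and 359).

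Peaks of a mark differed in width and score by the company they kept, though a wider peak also has more room to overlap others. H3K4me2 peaks over both other marks (5186) were 1985.5 bp wide at the median with a score of 975, and those over H3K4me3 only (10221) were 1441 bp wide with a score of 573. H3K4me2 peaks over H3K4me1 only (4138) had medians of 947 bp and 192, and those over neither (1902) 771.5 bp and 154. For H3K4me1 the strongest class was another: peaks over H3K4me2 only (6791) had medians of 678 bp and 257, while those over both marks (5501) had 517 bp and 173, close to the 518 bp and 173 of the 28069 over neither. H3K4me3 peaks over H3K4me2 only (8551) and over both (4578) had medians of 1652 and 1793 bp, and those over neither (442) 648 bp.

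The lists were also divided into 10 equal bins by score. From the lowest- to the highest-scoring bin of the H3K4me1 list, the share over H3K4me2 but not H3K4me3 went from 9.40% to 38.3%, and the share over H3K4me3 from 14.9% to 9.99%. Even in the highest bin, 51.7% of H3K4me1 peaks overlapped neither mark. For H3K4me2, the share over H3K4me3 went from 18.4% in the lowest bin to 99.7% in the highest. The share over H3K4me1 was 49.3% in the lowest bin, 30.7% in the sixth and 65.1% in the highest, so it was smallest in the middle of the list. The weak H3K4me2 peaks with H3K4me1 mostly lacked H3K4me3 (47.8% of the lowest bin overlapped H3K4me1 only), and the strong ones had it (0.280% of the highest bin overlapped H3K4me1 only).

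Most H3K4me2 peaks (71.8%) overlapped H3K4me3, whereas most H3K4me1 peaks did not, and peaks of either mark that did not overlap it were mostly far away. Distances were taken from edge to edge, and are 0 where peaks overlap or abut. From an H3K4me1 peak, the nearest H3K4me3 peak was 19407.5 bp away at the median (interval 18926 to 19858), with autosome medians between 10382 bp on chromosome 19 and 43240.5 bp on chromosome 13. The nearest H3K4me2 peak was 4487.5 bp away (4272 to 4714; autosome medians 1408 to 16478 bp). H3K4me1 peaks overlapped or abutted H3K4me3 in 13.8%, were within 1 kb of it in a further 5.40%, at 1 to 5 kb in 9.63%, at 5 to 10 kb in 9.03%, at 10 to 50 kb in 34.0%, at 50 to 100 kb in 15.2% and farther away in 12.97%. In the other direction, the median distance to the nearest H3K4me1 peak was 5254.5 bp from H3K4me3 peaks (4828 to 5876) and 1212 bp from H3K4me2 peaks (1051 to 1374). Such distances also depend on how many peaks the list being searched holds, and that of H3K4me1 holds the most. The 6040 H3K4me2 peaks that did not overlap H3K4me3 were 23668 bp from it at the median. For the 34857 H3K4me1 peaks that neither overlapped nor abutted H3K4me3 the median was similar, 26594 bp. The 457 H3K4me3 peaks that did not overlap H3K4me2, on sequences where both occur, were 29448 bp from it. Of all H3K4me3 peaks, 0.530% lay within 1 kb of an H3K4me2 peak without touching it. Since 96.6% overlapped or abutted H3K4me2, this share could only be small. It does not tell how common near misses were among the peaks without overlap.

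Regions with all 3 marks were wide and had many edges, in part because each merges several peaks. The typical one, on chromosome 1 (89160256 to 89162303, 2048 bp), holds 1 peak of each: H3K4me2 over the first 1575 bp, H3K4me3 over the last 1849 bp and an H3K4me1 peak of 309 bp across the left H3K4me3 edge. It is typical in width only, since its order of marks occurred in 175 regions (3.53%). Over the 4964 regions 519 orders of marks occurred, and the commonest, in 726 (14.6%), ran from H3K4me2 alone over H3K4me1 with H3K4me2, all 3 and H3K4me2 with H3K4me3 back to H3K4me2 alone. H3K4me2 alone formed 66.0% of the region ends, H3K4me1 alone 24.8% and H3K4me3 alone 8.95%. H3K4me3 reached neither end in 82.3% of these regions, and 1 end, as in the region named typical, in 17.3%.

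The widest such region, on chromosome 15 (85493752 to 85521638, 27887 bp), holds H3K4me1 within H3K4me3 as well as outside it. Its 4 H3K4me3 peaks cover 75.3% of it, its 2 H3K4me2 peaks 92.3% and its 12 H3K4me1 peaks 44.3%, and 6 of those 12 lie wholly inside an H3K4me3 peak. Next came 2 more on chromosome 15, at 102783239 to 102805133 (21895 bp, H3K4me1 over 20.3%) and at 76019698 to 76040282 (20585 bp, H3K4me1 over 65.9%). A region on chromosome 2 (93289537 to 93304103, 14567 bp) holds a single H3K4me3 peak of 4499 bp near its right end and an H3K4me1 peak of 6901 bp at its left end. The remaining one of the 5 widest lies on chromosome 3 (87941402 to 87955322, 13921 bp).

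The widest regions of the other classes show each relation at its extreme. On chromosome 6 (52169147 to 52185482, 16336 bp) a single H3K4me2 peak encloses 4 H3K4me3 peaks that cover 84.6% of it, with no H3K4me1. On chromosome 5 (58105082 to 58116192, 11111 bp) an H3K4me2 peak likewise encloses 2 H3K4me3 peaks. On chromosome 1 (148339243 to 148349996) H3K4me3 is the wider mark: its peak of 10066 bp encloses an H3K4me2 peak of 1800 bp and is staggered with another of 3631 bp, which starts 688 bp before it. It has no H3K4me2 beyond 148346222. For H3K4me1 and H3K4me2 the widest region, on chromosome 15 (77626432 to 77638794, 12363 bp), is a single H3K4me1 peak that encloses an H3K4me2 peak of 3471 bp. It is followed on the same chromosome by an H3K4me1-only peak (77639183 to 77645956, 6774 bp) and a region of both marks (77645958 to 77657195, 11238 bp), so the 3 lie end to end with gaps of 388 and 1 bp. The other wide H3K4me1 and H3K4me2 region is on chromosome 10 (80870461 to 80881489), where 5 H3K4me2 peaks stand on 2 H3K4me1 peaks. Of the H3K4me1-only regions the others were on chromosome 11 (3040439 to 3048917, 8479 bp) and chromosome 2 (35529434 to 35535036, 5603 bp). The one on chromosome 11, the widest of its class, is a weak peak with a score of 166, against 3054 for that on chromosome 2.

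**Figure D4:**
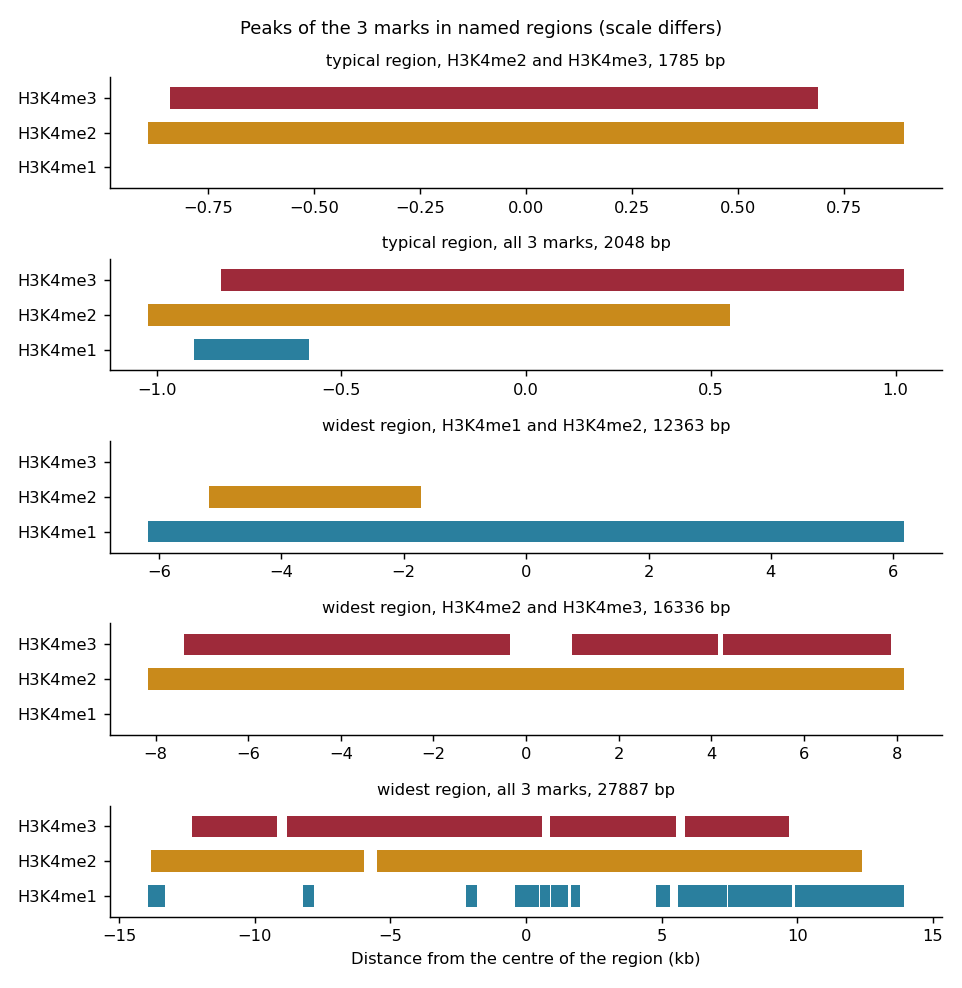
Peaks of the 3 marks (coloured bars, 1 row per mark) against the distance from the centre of the region in kb, in 5 named regions, with a scale of its own in each panel. Typical regions were chosen by width and not by their order of marks. H3K4me3 sits inside H3K4me2 in the typical region of 1785 bp, H3K4me1 sits at the left H3K4me3 edge in the typical region of 2048 bp, and the widest region, of 27887 bp, holds 12 H3K4me1 peaks, 6 of them wholly inside H3K4me3; peaks less than about 100 bp apart merge at this scale.

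Chromosomes differed far more in H3K4me1 than in the other marks. H3K4me1 peaks per H3K4me3 peak ranged from 1.72 on chromosome 7 to 5.31 on chromosome 15, and H3K4me2 peaks per H3K4me3 peak from 1.45 on chromosome 13 to 1.74 on chromosome 15. In bases, H3K4me1 covered 0.541 times as much as H3K4me3 on chromosome 7 and 2.33 times as much on chromosome 15. Chromosomes 7 and 15 were also the extremes of the autosomes in median width for each mark: 437 and 683 bp for H3K4me1, 1162 and 1554.5 bp for H3K4me2, and 1505 and 1787.5 bp for H3K4me3. The median scores went the same way, from 157 to 220 for H3K4me1 and from 396 to 621 for H3K4me2. The share of H3K4me3 peaks with H3K4me2 varied little, between 94.0% on chromosome 13 and 99.4% on chromosome 19. The part of these widths and scores in the differences between chromosomes was not tested.

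Chromosome X carried H3K4me3 almost without H3K4me1. It held 433 H3K4me3 peaks, 487 H3K4me2 peaks and 77 H3K4me1 peaks, that is 0.178 H3K4me1 peaks and 1.12 H3K4me2 peaks per H3K4me3 peak, both below every autosome. H3K4me1 overlapped 1.85% of the H3K4me3 peaks there, and H3K4me2 overlapped 81.3%. Scores and most widths were low on X as well, and their part in these shares was not tested: the median H3K4me3 score was 1625 and its median width 1504 bp, and the median H3K4me2 score was 218 and its width 949 bp, each below all autosomes. The median H3K4me1 score, 140, was also below all autosomes (lowest 157, on chromosome 7), while the median H3K4me1 width, 460 bp, was within their range. Of the 442 regions with H3K4me3 only, 80 (18.1%) lay on X, which held 3.19% of all H3K4me3 peaks.

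**Figure D5:**
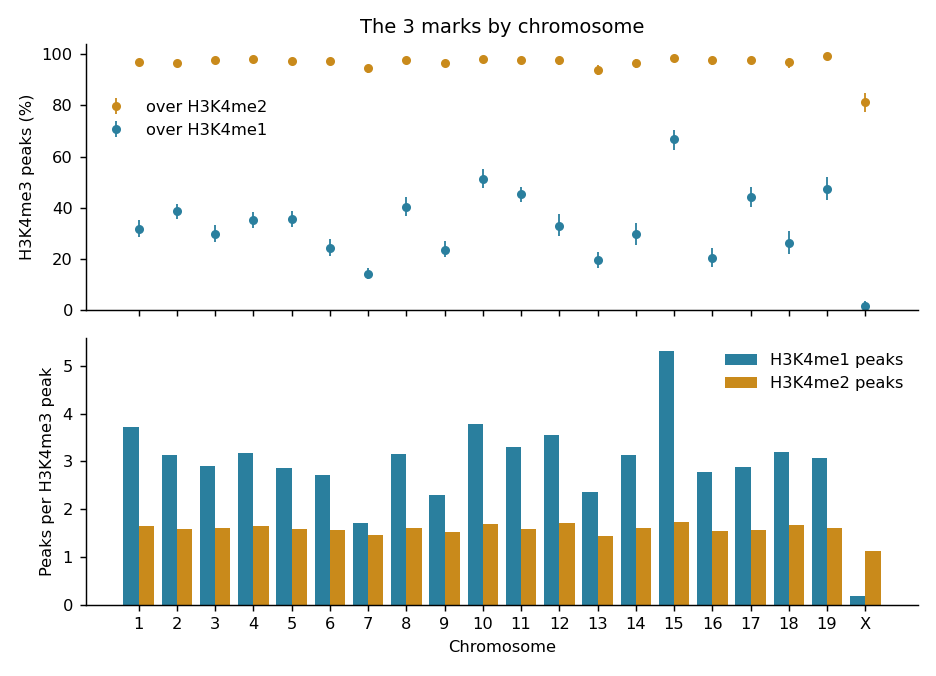
Upper panel: percent of H3K4me3 peaks that overlap H3K4me2 or H3K4me1 on each chromosome, with 95% Wilson intervals. Lower panel: number of H3K4me1 and of H3K4me2 peaks per H3K4me3 peak; H3K4me1 is highest on chromosome 15 (5.31) and lowest on X (0.178), while H3K4me2 runs from 1.12 on X to 1.74.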

How the data were processed

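Peak lists of 3 libraries of C2C12 cells were used, 1 for each mark in vehicle cells. Per the file headers, the authors detected peaks with MACS within Galaxy. The deposited score is the value the caller wrote for each peak, which the headers do not name. The submitters' processing notes name Bowtie2, deepTools and build mm9. For their versions, the settings, the input and the number of reads, nothing is stated in the sources used here, so depth is unknown and no scaling was made for it. More reads or stronger enrichment can give more, wider and higher-scoring peaks. No peak was left out for lying in repeated sequence.

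Positions are 1-based. Overlap means at least 1 bp. Regions are peaks of any mark merged where they share a base. Coverage was read at single positions in steps of 100 bp. Intervals are 95% Wilson intervals for shares and order-statistic intervals for medians, and no test was made. Named regions were the 3 widest of each class (5 for all 3 marks) and a typical region of each multi-mark class, the region with 1 peak of each of its marks whose width is nearest the median of such regions; chromosome 18 and unplaced sequence were left unnamed. For each mark, the 3 highest-scoring peaks that overlap no other mark were named too. The comparisons and rules were chosen with earlier results of these data known. Planned counts of base composition, gene starts and marker genes were not made, since no genome or annotation of mm9 was used here. The interval functions gave the same values as bedtools 2.31.1 on simulated lists. Computation used scipy 1.17.1 and numpy 2.4.6 in Python 3.11.15, and plots used matplotlib 3.10.9. Alternatives were a score of 200 or more, lists of equal length, autosomes only, joined neighbours and other windows and overlap rules.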

Additional observations from a re-analysis of the deposited data

How the results depend on the processing

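Under each alternative tried, H3K4me2 was wider than H3K4me3 at the median of pairs. The share of H3K4me3 bases in H3K4me2 also stayed above the reverse share. Both shares rest on the same shared bases, so that order only restates that the H3K4me2 list covered more bases. Uncut, the lists covered 34.1 Mb (H3K4me2) and 24.4 Mb (H3K4me3). The share of H3K4me3 bases inside H3K4me2 was 90.01% with a score of 200 or more, 84.3% with lists of equal length, 93.1% on autosomes and 93.7% with neighbours under 500 bp apart joined. In the same order, H3K4me2 bases inside H3K4me3 came to 70.0%, 75.5%, 65.8% and 66.3%, and H3K4me1 bases inside H3K4me2 to 19.9%, 15.7%, 24.39% and 24.5%. H3K4me1 bases inside H3K4me3 came to 5.90% (score), 5.87% (equal length) and 7.96% (joined). H3K4me3 was wholly inside H3K4me2 in 61.3% (score), 60.3% (equal length), 65.9% (autosomes) and 70.5% (joined) of pairs, and the ratio of widths was 1.17 (score) and 1.16 (equal length). Regions with all 3 marks fell to 2028 (score) and 1635 (equal length). The distance from H3K4me1 to H3K4me3 was 20593 bp (score), 17739 bp (equal length) and 20772 bp from centre to centre. H3K4me1 on both sides of H3K4me3 fell to 3.702% (score) and 3.13% (equal length), and was 8.81% within 1 kb and 14.1% within 5 kb. H3K4me1 at 100 bp outside H3K4me3 edges was 6.74% (score), 5.53% (equal length), 13.7% (autosomes), 14.3% (joined) and 12.7% at edges with no other H3K4me3 peak within 10 kb. The score and equal-length alternatives use fewer peaks; beyond that the cause was not tested. No paired analysis was possible because each mark has 1 library. Depth is unknown, so a missing H3K4me1 peak shows only that none was listed.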

Other observations

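The highest-scoring peaks that overlapped no other mark differed in how isolated they were. For H3K4me1 they were on chromosome 15 (75651353 to 75655872, score 3188), where the nearest H3K4me2 peak was 2300 bp away, on chromosome 2 (35529434 to 35535036, score 3054), 9215 bp away, and on chromosome 17 (27291539 to 27296741, score 2956), 48 bp away. These peaks were 4520, 5603 and 5203 bp wide. For H3K4me2, a peak on chromosome 12 (4037816 to 4039211, score 1037) lay 178978 bp from H3K4me1 and 43007 bp from H3K4me3. Another on chromosome 13 (74146211 to 74147928, score 1012) lay 204852 and 51040 bp away, while the one on chromosome 11 (60592950 to 60595714, score 1003) had H3K4me1 at 561 bp and H3K4me3 at 866 bp. Of the 442 lone H3K4me3 peaks, 0.905% stood at the score of 3100 and cannot be ranked among themselves. Leaving out unplaced sequence, they were on chromosome 11 (3101341 to 3103980), chromosome 14 (13116441 to 13117728) and chromosome X (75039991 to 75041527), with H3K4me2 at 60589, 670580 and 281495 bp. Scores are not compared between the lists.

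The widest H3K4me2-only regions were on chromosome 17 (39979847 to 39985866, 6020 bp), chromosome 19 (19174386 to 19177206, 2821 bp) and chromosome 11, the peak at 60592950 given above. Peaks in repeated sequence were not left out, and whether any of these regions lies in such sequence was not tested. The widest H3K4me3-only region, of 3433 bp, lay on unplaced sequence, and the next were on chromosome 7 (53631725 to 53634394, 2670 bp), chromosome 11, the lone peak at 3101341, and chromosome X (95343978 to 95346272, 2295 bp). All 17 regions with H3K4me1 and H3K4me3 but no H3K4me2 were under 2 kb, with widths of 1787 bp at 144402164 to 144403950 on chromosome 5, 1574 bp at 43198635 to 43200208 on chromosome 1 and 1492 bp at 70008857 to 70010348 on chromosome 14 as the upper end. The typical one, on chromosome 3 (152140775 to 152141590), joined peaks of 439 and 394 bp that shared 17 bp.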
